A study of Bos taurus with 15 samples.

Results

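Of 15 RNA-seq libraries of bovine (Bos taurus) blastocysts at day 7, 5 held far fewer detected genes than the other 10, and these 5 are described here against the rest. They were chosen on the number of genes with 10 or more counts: a library with fewer than 9000 such genes was put in the low-detection class. The rule took automatic 2 and 4, manual 2, and in vivo 2 and 4, and values of the 5 are given below in that order. The study holds 3 groups of 5 libraries: blastocysts collected in vivo, blastocysts cultured in SOF medium after the cumulus cells of the zygotes had been removed by hand (manual), and the same culture after removal by an automatic method (automatic). The class therefore holds 2 automatic, 1 manual and 2 in vivo libraries. Whether a library came from 1 blastocyst or from a pool is not in the labels, and neither is the origin of a group's libraries in different cultures, donors or days. A p-value here therefore measures the spread between libraries only, and that spread may be technical. All libraries were made from poly(A) RNA, after a check of RNA integrity, with adaptors that carry molecular identifiers.

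A blastocyst is made of the trophectoderm, an outer epithelium that later forms the fetal part of the placenta, and the inner cell mass, which gives the epiblast and the hypoblast. By this stage the embryo runs on its own transcripts, with strong expression of ribosomal protein, mitochondrial and cytoskeletal genes. A bulk library is a sample of the RNA molecules of such an embryo, and its counts are not scaled to transcript length here. In bulk libraries fewer cells of a type and less RNA per cell cannot be told apart.

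The 5 libraries held 7686, 6977, 8346, 7293 and 8547 genes with 10 or more counts. The other 10 held from 9900 to 12611, with a median of 10848, so that the nearest libraries on either side of the limit had 8547 genes (in vivo 4) and 9900 genes (manual 5). As these counts chose the class, they are a description with no test. Total counts were 27.2, 19.7, 27.3, 24.1 and 24.5 M (M stands for 1e6 counts) in the 5 and from 17.96 to 41.97 M, with a median of 29.4 M, in the other 10. The depths overlapped, though the totals of the 5 all lay below that median. Manual 5, with the lowest total of all 15 libraries, held 9900 genes. The part of depth in the number of detected genes was not tested. On a scale that takes out the total, genes at 1 or more CPM (counts per 1e6 counts of the library) numbered from 6409 to 7901 in the 5 and from 9276 to 11256 in the other 10.

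**Figure D1:**
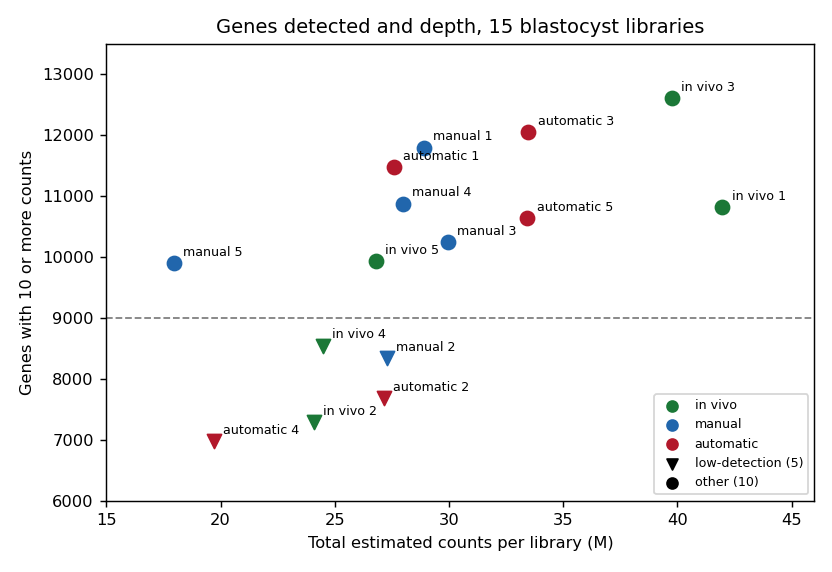
Genes with 10 or more counts (vertical axis) against total estimated counts in M (horizontal axis) for the 15 libraries. Colours show the group, triangles the 5 low-detection libraries and circles the other 10, and the dashed line marks 9000 genes. The triangles lie between 6977 and 8547 genes within the range of totals of the circles.

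Counts were also more concentrated in the 5 libraries. The 10 highest genes took from 12.6% to 22.5% of counts in them and from 8.13% to 13.7% in the other 10. From 107 to 310 genes, with a median of 250, held the first 50% of counts in the 5, and from 304 to 474 in the other 10. CELF2, which encodes an RNA-binding splicing regulator, was the highest gene of automatic 4 and in vivo 2 with 4.24% and 5.89% of counts, and also of manual 4 and manual 5 among the other libraries, with 2.80% and 2.20%. The TMM scaling factors, which correct for such concentration, ran from 0.543 (in vivo 2) to 0.947 in the 5 and from 1.02 to 1.24 in the other 10.

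The low-detection libraries were not spread evenly over the replicate numbers in the labels. All 3 libraries numbered 2 were in the class, as were 2 of the 3 numbered 4, and no library numbered 1, 3 or 5. Genes with 10 or more counts ran from 7293 to 8346 at number 2, from 6977 to 10879 at number 4, and from 9900 to 12611 at the remaining numbers. No test of this pattern is given, because the number of detected genes chose the class and the pattern was seen in the list of its members, and the labels do not say what the number stands for.

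The genes that were missed were mostly those of low and middle level. Each gene was placed in a bin by its mean CPM over the other-detection libraries, and the share of the bin with 10 or more counts was taken in each library. Among genes of 5 to 20 CPM, a median of 51.3% (43.2% to 63.6%) reached 10 counts in the 5 libraries, against 92.1% (82.9% to 99.4%) in the other 10. At 20 to 100 CPM the medians were 82.4% (77.5% to 92.0%) and 99.7% (98.1% or more). From 100 to 500 CPM they were 98.3% and 100%, and all genes at 500 CPM and over reached 10 counts in every library. The classes did not overlap in any bin under 500 CPM. As the class was chosen on the number of genes with 10 or more counts, this gap is not a separate result.

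**Figure D2:**
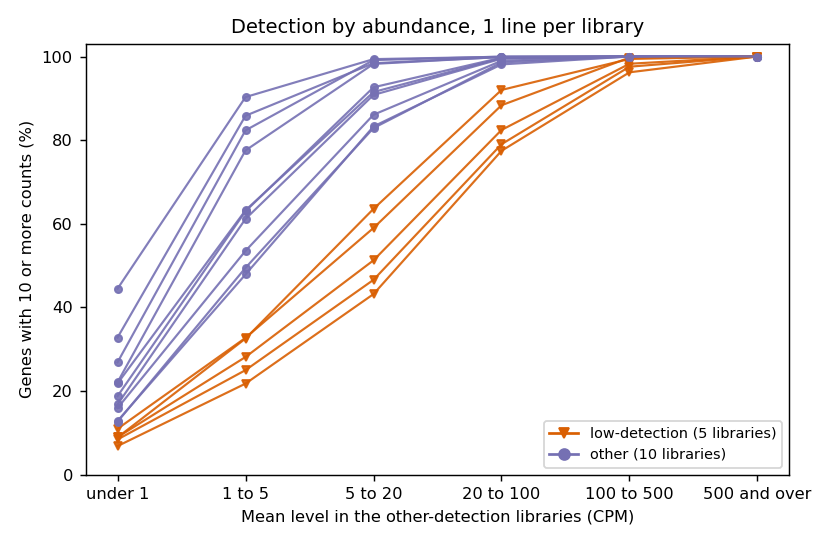
Share of genes with 10 or more counts (vertical axis, percent) by the mean level of the gene in the other-detection libraries (horizontal axis, CPM bins), with 1 line for each library. The 5 low-detection libraries (triangles) run below the 10 others (circles) up to the bin of 100 to 500 CPM and meet them at 500 CPM and over.

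A set of 7694 genes had 10 or more counts in all 10 other libraries. Of these, 4171 (54.2%) had 10 or more counts in the 5 low-detection libraries too and are called kept, and 3523 (45.8%) were under 10 counts in 1 or more of the 5 and are called lost. Of the lost genes, 1583 were lost in 1 of the 5 libraries, 1022 in 2, 594 in 3, 262 in 4 and 62 in all 5. The reverse was rare, a direction that the choice of libraries with few genes at 10 or more counts favours by itself. Of 4273 genes with 10 or more counts in all 5 low-detection libraries, 102 (2.39%) were under 10 counts in 1 or more of the other 10, and 10 in 3 or more of them.

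Taken library by library, 1438, 1829, 1034, 1648 and 818 of the 7694 genes were under 10 counts, which is 18.7%, 23.8%, 13.4%, 21.4% and 10.6%. Each of the other 10 libraries lost from 0 to 4.09% of the genes found in the remaining 9. Between 54.5% and 69.7% of the genes lost in a low-detection library were listed at 0 counts there. Genes at 0 included some of high level elsewhere: 88, 126, 42, 96 and 18 genes at 0 had a mean of 50 CPM or more in the other 10 libraries. The highest of these was PLAU, the urokinase plasminogen activator, at 377 CPM elsewhere and at 0 in automatic 2. For automatic 4 it was IL2RB, an interleukin receptor chain, at 248 CPM, and for manual 2 CTSZ, a lysosomal cathepsin, at 128 CPM. For in vivo 2 it was DDX39B, an RNA helicase of mRNA export, at 206 CPM, and for in vivo 4 ESRRB, a nuclear receptor of pluripotent cells, at 142 CPM. These 5 genes were singled out after their values were seen. The source of the zeros was not tested, as reads are not independent molecules and the genes were picked as being at 0.

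Different libraries lost partly different genes. For any 2 of the 5, the shared genes made up from 22.5% to 55.7% of either library's losses. Automatic 2 and automatic 4, of the same group, shared 683 lost genes (47.5% and 37.3% of their losses), and automatic 4 and in vivo 2, of different groups and numbers, shared 771 (42.2% and 46.8%). Levels showed the same spread. Over 11147 genes with a mean of 1 CPM or more, Pearson's r of log2(CPM + 1) ran from 0.607 to 0.690 for the 10 pairs within the low-detection class, from 0.594 to 0.776 for the 50 pairs across classes and from 0.766 to 0.941 for the 45 pairs of other libraries. These are correlations across genes, which are not independent replicates, and the pairs share libraries. Any 2 low-detection libraries had a lower r with each other than any 2 of the other 10 had.

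The 62 genes lost in all 5 libraries had other-library means from 1.32 to 27.4 CPM. They were led by MOB3C, a kinase adaptor, at 27.4 CPM, COG7, a subunit of a Golgi tethering complex, at 25.8 CPM, and TBL2 at 25.7 CPM. Regulators of chromatin and signalling among them were TET2, which oxidises 5-methylcytosine (15.4 CPM), SIRT6, a nuclear deacylase (6.70 CPM), FGFR2, a fibroblast growth factor receptor (14.6 CPM), and RARA, a retinoic acid receptor (4.18 CPM). Of the 62, 20 were at 0 counts in all 5 libraries. The genes named here from the 62 were picked by level or role after their values were seen, apart from TET2 and FGFR2.

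To describe size, a log2 difference (low-detection minus other libraries, group as a covariate) was fitted with edgeR for the 11578 genes that passed the filter on low counts. No p-value is given for this contrast, because the libraries were chosen on the same counts. The median over all genes was -0.55, with 7422 genes below and 4156 above 0 (35.9% above; 23.4% when scaled by library size alone, which put the median at -1.003). A log2 difference of -2 or below, a 4-fold lower level, was found for 2984 genes (25.8%), and one of 2 or above for 348 (3.01%). All 5 libraries lay below all 10 others for 250 genes (2.16%) and above them for 109 (0.941%). With scaling by library size alone the last 2 counts were 373 and 31. Lists of genes are therefore given relative to the median of all genes.

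Functions kept whole or nearly so were mostly of high level. Of cytosolic ribosomal protein genes, 61 of the 61 found in all 10 other libraries were kept in the 5. The deposited counts held 9 protein genes of the mitochondrial genome, and all 9 were kept. Kept too were 67 of 68 nuclear genes of oxidative phosphorylation (respiratory chain and ATP synthase subunits), 37 of 38 translation factors, 33 of 34 proteasome genes and 34 of 36 genes of actin and the cytoskeleton. Mitochondrial ribosomal proteins kept 68 of 73 and chaperones 36 of 40. In the other libraries the median member of these lists lay between 113 and 5023 CPM, against 42.5 CPM for all 7694 genes, of which 54.2% were kept. Level did not order the lists throughout: glycolysis, with a median of 630 CPM, kept 15 of 19 genes (78.9%), a smaller share than mitochondrial ribosomal proteins (93.2%) at 113 CPM.

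Among lists with 10 or more genes found in all 10 other libraries, 6 kept a smaller share than the 54.2% of all genes. Zinc finger genes named ZNF, most of them DNA-binding repressors, kept 42 of 110 (38.2%), receptors and ligands of signalling 10 of 22 (45.5%), and genes of apoptosis and p53 targets 12 of 26 (46.2%). DNA repair kept 31 of 61 (50.8%), chromatin modifiers 38 of 73 (52.1%) and hypoblast genes 8 of 15 (53.3%), the last 3 close to the share of all genes. Amino acid response and transport kept 12 of 22 (54.5%) and the general transcription machinery 33 of 56 (58.9%). The median member lay between 19.6 CPM (ZNF) and 72.4 CPM (hypoblast) in the other libraries for the 6 lists. Among genes of 20 to 100 CPM, 52.7% of all genes were kept, as were 52.9% of chromatin modifiers, 54.3% of DNA repair genes, 47.9% of ZNF genes and 58.5% of the transcription machinery. Mitochondrial ribosomal proteins kept 27 of 31 (87.1%) in that bin, and genes of the cell cycle and DNA replication 14 of 36 (38.9%). At 5 to 20 CPM, 18.99% of all genes were kept, against 1 of 17 chromatin modifiers (5.88%) and 12 of 50 ZNF genes (24.0%). No test was made of any list, since the class was chosen on the same counts.

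**Figure D3:**
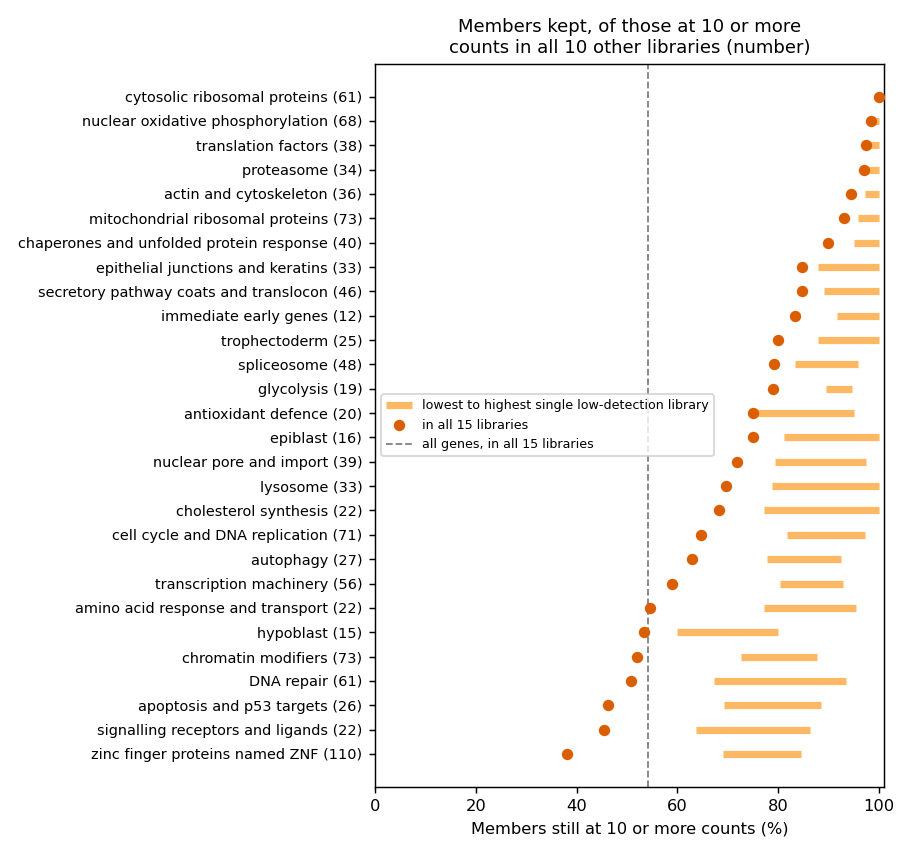
Members of each gene list still at 10 or more counts (horizontal axis, percent), out of those with 10 or more counts in all 10 other libraries (number in brackets, lists with 10 or more). Dots show members kept in all 15 libraries, bars the lowest to highest single low-detection library, and the dashed line the 54.2% of all genes. Ribosomal proteins lie at 100% and ZNF genes at 38.2%.

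Transcripts of the mitochondrial and ribosomal machinery took a larger part of the counts. The 9 genes of the mitochondrial genome present in the deposited counts took 8.18%, 9.38%, 14.4%, 13.4% and 10.997% of counts in the 5 libraries. In the other 10 they took 3.26% to 9.99% (median 4.76%). The ranges overlapped only through manual 5, at 9.99%. Nuclear genes of oxidative phosphorylation held 5.21%, 4.36%, 5.17%, 6.76% and 4.29%, against 2.97% to 4.24% (median 3.48%), with no overlap. Cytosolic ribosomal proteins held from 7.69% to 12.6% (median 9.88%) in the 5 and from 4.18% to 9.33% (median 6.53%) in the other 10, with overlap.

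Housekeeping lists differed in how high they lay. Relative to the median of all genes, the median log2 difference was 2.39 for the mitochondrial genome, 1.33 for cytosolic ribosomal proteins, 1.22 for nuclear oxidative phosphorylation, 0.92 for mitochondrial ribosomal proteins and 0.73 for the proteasome. It was 0.75 for the transcription machinery and 0.51 for coats and translocon of the secretory pathway. For translation factors it was 0.48, for the spliceosome and the cell cycle 0.47, and for nuclear pore and import genes 0.24. Cholesterol synthesis genes lay at 0.78, ZNF genes at -0.31, apoptosis genes and p53 targets at -0.61 and interferon response genes at -1.08. These are some of the 36 lists. Translation factors held a smaller share of counts, 1.91% (1.44% to 2.03%) against 2.14% (1.80% to 2.56%), and so did actin and cytoskeletal genes, 3.58% (2.88% to 4.55%) against 5.60% (3.71% to 6.52%), both with overlap.

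**Figure D4:**
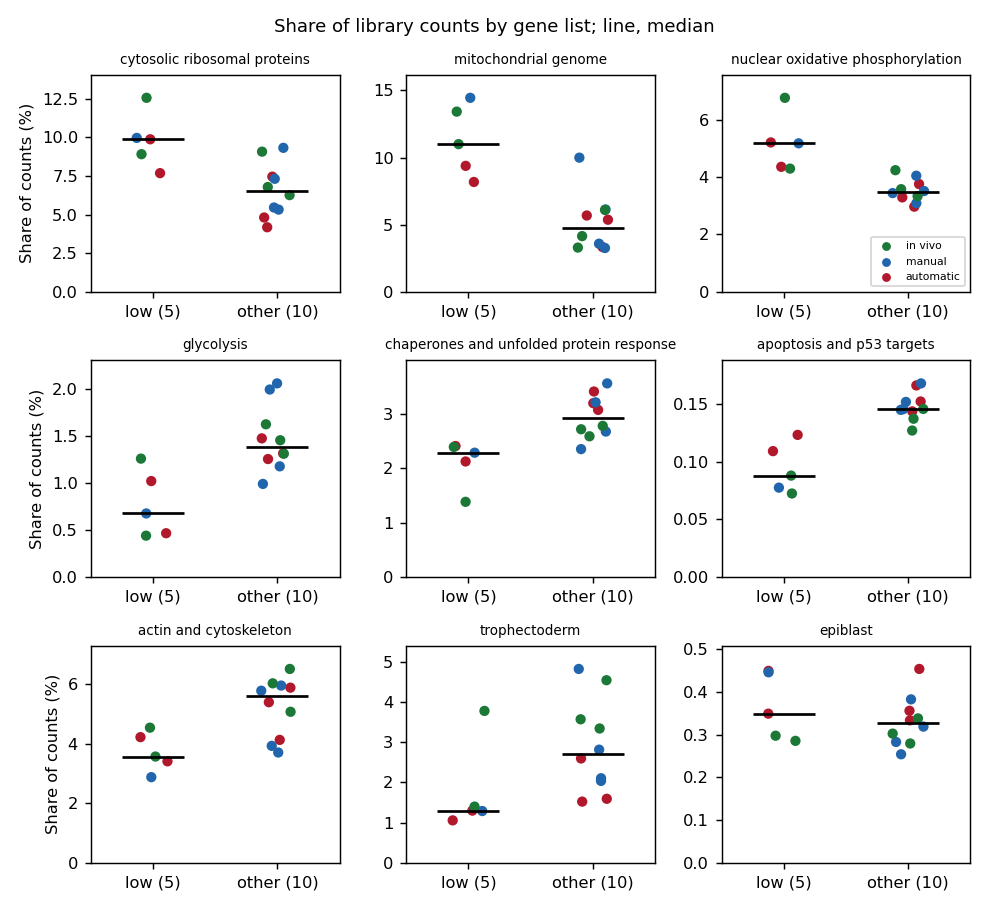
Share of a library's counts held by 9 gene lists (vertical axes, percent, from 0), for the 5 low-detection and the 10 other libraries, with 1 point for each library coloured by group and a line at the median. Nuclear oxidative phosphorylation separates the classes upward (lowest of the 5, 4.29%, highest of the 10, 4.24%), apoptosis and p53 targets downward, and the epiblast list overlaps fully.

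Subunits of the same complex differed widely. Of 68 nuclear genes of oxidative phosphorylation, 56 lay above 0 and 12 below, and all 5 libraries lay above all 10 others for 17 (0.941% of all genes did so). Complex I, which passes electrons from NADH, gave 11 of the 17, and its 34 genes had a median of 0.70, with NDUFA5 highest at 2.62. ATP synthase gave 5 of the 17, with 15 genes from -1.02 to 2.04 and a median of 0.91. The 6 genes of complex IV, cytochrome c oxidase, had a median of 1.58, and the 4 of complex II, succinate dehydrogenase, one of -0.35.

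Both ends are shown by 3 of these genes. COX7B, a small subunit of complex IV, stood at 1264, 1431, 1622, 8030 and 550.4 CPM in the 5 and from 89.3 to 791 CPM (median 194) in the other 10, a log2 difference of 3.20 ± 0.59 (SE). It was highest in in vivo 2 and within the range of the others only in in vivo 4, and was 2.23 without in vivo 2. ATP5F1B, the catalytic subunit of ATP synthase, stood at 2232, 806, 1273, 2075 and 3188 CPM against 1617 to 5009 CPM (median 3852), a log2 difference of -1.02 ± 0.29 (SE). SDHA, the flavoprotein of complex II and chosen after its values were seen, stood at 603, 136, 197, 13.9 and 326 CPM against 193 to 786 CPM, with its lowest level in in vivo 2, where COX7B was highest.

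The same spread was seen within the ribosome and the proteasome. RPS29, of the small ribosomal subunit, stood at 4156, 3322, 4484, 19350 and 2028 CPM in the 5 and from 247 to 2596 CPM (median 477) in the other 10, a log2 difference of 3.01 ± 0.61 (SE), and of 2.19 without in vivo 2. RPLP0, of the ribosomal stalk and chosen after its values were seen, differed by -0.48 ± 0.21. The 33 genes of the large subunit had a median of 0.80 and the 27 of the small subunit one of 0.66. In the proteasome, 12 of 13 core genes (PSMA and PSMB) lay above 0, with PSMA3 at 2.32 (1.74 without in vivo 2), while 5 of 6 ATPases of the cap (PSMC) lay below, with a median of -0.46. Of 11 eIF3 genes, which encode the scaffold of translation initiation, 8 lay below 0, with a median of -0.48. Both medians are close to the -0.55 of all genes, of which 7422 of 11578 lay below 0. Transcript lengths were not used here, so whether these differences go with length was not tested.

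Single genes above the others in all 5 libraries were led by C8H9orf85, at 72.6, 79.9, 43.0, 140.5 and 32.7 CPM against 2.49 to 15.2 CPM, a log2 difference of 3.53 ± 0.70 (SE). RPA3, the smallest subunit of the replication protein that binds single-stranded DNA, stood at 521, 306, 711, 2753 and 273 CPM against 64.1 to 240 CPM, a log2 difference of 2.93 ± 0.50. The next were TPRKB, of the complex that modifies tRNA (2.90 ± 0.50), ATP6V1G3, of the vacuolar proton pump (2.77 ± 0.68), and BBIP1, of the cilium trafficking complex BBSome (2.70 ± 0.75). CETN3, a centrin of the centrosome, DMTF1, a transcription factor, and PIN4, a prolyl isomerase, lay at 2.68, 2.68 and 2.66. In vivo 2 was the highest of the 15 libraries for all 8 of these genes. Without it the log2 differences were 2.86 for C8H9orf85, 2.02 for RPA3, 1.97 for TPRKB, 2.20 for ATP6V1G3, 2.15 for BBIP1, 1.94 for CETN3, 2.22 for DMTF1 and 2.13 for PIN4.

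At the other end, the 8 genes of the rule with the largest difference were at 0 counts in all 5 libraries, so that only a bound can be given, taken from 3 counts per library against the mean of the other 10. Such a bound covers counting error only, and reads are not independent molecules. CALCOCO1, a coiled-coil protein known as a coactivator and autophagy receptor, had 0.25 to 55.6 CPM (median 25.5) in the other 10 and was at least 154-fold lower. ACAD10, an acyl-CoA dehydrogenase, had 4.75 to 43.5 CPM (median 14.2) and was at least 113-fold lower. For CPQ, a carboxypeptidase, the bound was 92.5-fold, and for TTI1, which stabilises kinases of the PI3K-related family, 85.7-fold. PCGF3, a Polycomb protein, MARCHF8, a ubiquitin ligase, DUOX2, an NADPH oxidase, and PFKFB3, which sets the level of an activator of glycolysis, were at least 81.5-, 76.2-, 68.1- and 65.7-fold lower. CALCOCO1 and TTI1 were under 10 counts in 1 of the other 10 libraries as well. In all, 487 of the 11578 genes were at 0 in all 5 libraries.

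Genes of RNA processing and transcription showed both directions. SNRPE, a core protein of the spliceosomal particles, differed by 2.66 ± 0.46 (SE; 1.94 without in vivo 2), from 1013 to 8918 CPM in the 5 and from 264 to 1348 CPM in the other 10. DHX38, a helicase that remodels the spliceosome, stood at 2.03, 0, 0, 0.077 and 0.18 CPM against 5.15 to 42.7 CPM (median 31.5). TAF6, a subunit of the general factor TFIID, was under 10 counts in all 5 and ranged from 1.07 to 29.9 CPM in the others, while TAF9 of the same factor stood at 281 to 639 CPM against 124 to 309 CPM, a log2 difference of 1.33 ± 0.26. EIF2B4, of the exchange factor that recycles eIF2, lay below the other 10 in all 5 libraries, at 66.3, 0.61, 1.03, 17.8 and 31.1 CPM against 69.7 to 127 CPM.

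Among 84 chromatin modifiers in the fit, 61 lay below 0, 18 at -2 or below and 1 (KDM6B) at 2 or above, beside 25.8% and 3.01% of all genes. All 5 libraries lay below all 10 others for TET2, SIRT6, the histone methyltransferase KMT5A and the arginine methyltransferase CARM1, the last 3 named after their values were seen. TET2 stood at 0, 0, 0, 0.38 and 0.091 CPM against 6.48 to 21.7 CPM (median 13.04). KDM6B, a demethylase of histone H3 lysine methylation chosen after its values were seen, stood at 60.9, 78.1, 33.3, 166 and 22.3 CPM against 6.44 to 50.4 CPM, a log2 difference of 2.31 ± 0.72 (SE), and of 1.60 without in vivo 2. DNMT3A, a DNA methyltransferase and the highest of the list, overlapped, at -0.47 ± 0.30.

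**Figure D5:**
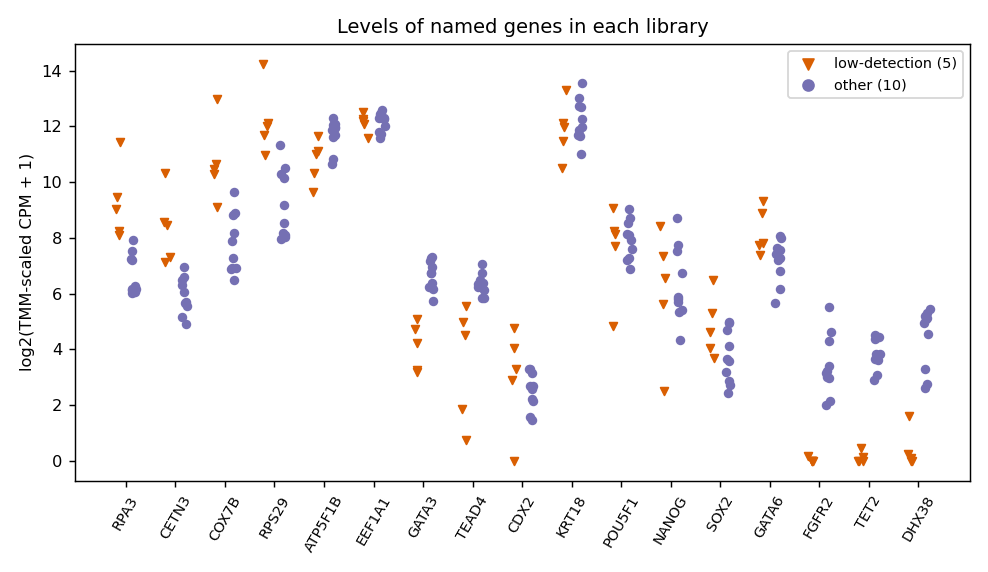
Levels of 17 named genes in each library, as log2(TMM-scaled CPM + 1) on the vertical axis, with triangles for the 5 low-detection and circles for the 10 other libraries. On this scale RPA3 and CETN3 are higher and GATA3, TEAD4, FGFR2, TET2 and DHX38 lower in all 5, while KRT18, POU5F1 and NANOG overlap. With library size alone RPA3 and CETN3 overlap as well. Levels are not scaled to transcript length and are not to be compared between genes.

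Markers of the blastocyst were present in both classes. KRT18, a keratin of the trophectoderm, stood at 2861, 1434, 4015, 4448 and 10017 CPM in the 5 and from 2051 to 12159 CPM (median 4485) in the other 10, with automatic 4 below all others and the remaining 4 within their range. Of 25 trophectoderm genes found in all 10 other libraries, 20 were kept in the 5. Their share of counts was 1.30%, 1.06%, 1.29%, 1.40% and 3.78% in the 5, against 1.52% to 4.82% (median 2.71%), so that 4 of the 5 libraries lay below all others and in vivo 4 within their range. KRT8, the partner of KRT18, stood at 4947, 2123, 3505, 7749.9 and 13816 CPM against 3817 to 21308 CPM (median 10962), a log2 difference of -0.94 ± 0.37 (SE).

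Trophectoderm factors were not alike. GATA3, a transcription factor of the lineage, stood at 8.53, 25.5, 32.9, 8.11 and 17.6 CPM in the 5 and from 52.7 to 159 CPM (median 106) in the other 10, a log2 difference of -2.51 ± 0.49 (SE) with no overlap. TEAD4, which acts upstream in the lineage and was chosen after its values were seen, stood at 30.5, 0.66, 22.1, 2.60 and 46.2 CPM against 55.7 to 134 CPM, also with no overlap. CDX2, which maintains the lineage, stood at 8.84, 0, 15.5, 6.43 and 26.2 CPM against 1.75 to 8.90 CPM, a log2 difference of 1.03 ± 1.07, with the highest and the lowest value of all 15 libraries both within the 5.

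Epiblast factors overlapped between the classes. POU5F1 stood at 281.5, 539, 209, 27.8 and 299 CPM in the 5 against 118 to 520 CPM (median 257), with in vivo 2 below and automatic 4 above all others. NANOG stood at 4.68, 94.4, 48.3, 161 and 346 CPM against 19.1 to 414 CPM, and SOX2 at 38.1, 88.5, 23.8, 15.5 and 11.98 CPM against 4.41 to 30.2 CPM. The log2 differences were -0.06 ± 0.49, -0.08 ± 0.53 and 1.11 ± 0.76 (SE). DPPA3, a factor of oocytes and pluripotent cells, differed by 2.31 ± 0.40 (1.65 without in vivo 2), at 1443, 1754, 2765, 3135 and 363 CPM against 183 to 751 CPM. Of 16 epiblast genes found in all 10 others, 12 were kept. The list's share of counts, DPPA3 included, was 0.35% (0.29% to 0.45%) against 0.33% (0.25% to 0.45%). Most of the list lay lower: of 23 genes in the fit, 18 were below 0, beside 7422 of 11578 for all genes. Their median log2 difference was -1.20, against -0.55 over all genes. At -2 or below lay 6 of the 23, and at 2 or above DPPA3 alone, beside 25.8% and 3.01% of all genes.

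Hypoblast genes were kept about as often as all genes, 8 of 15 (53.3%) beside 54.2%. GATA6, an early factor of the lineage, stood at 213, 634, 167, 474 and 222 CPM in the 5 against 49.9 to 269 CPM (median 162), a log2 difference of 1.10 ± 0.44 (SE). FGFR2 was at 0 in 4 of the 5 and at 0.14 CPM in in vivo 4, against 2.96 to 44.5 CPM. LAMA1, a laminin chain of basement membrane chosen after its values were seen, stood at 0, 0, 0.094, 16.7 and 0.046 CPM against 3.79 to 46.6 CPM, while FN1, fibronectin, stood at 1171 to 2038 CPM against 1172 to 4871 CPM. GATA4 was under 10 counts in all 5 libraries and in 3 of the other 10, and SOX17 in all 5 and in 8 of the other 10, so neither could be described.

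Metabolic and stress genes took a smaller part of counts in several lists. Glycolysis genes held 1.02%, 0.47%, 0.68%, 0.44% and 1.26% in the 5, against 0.99% to 2.06% (median 1.39%). GAPDH, the glycolytic dehydrogenase, differed by -0.53 ± 0.27 (SE), close to the median of all genes. Chaperones held from 1.38% to 2.41% against 2.35% to 3.55%, and HSPA8, the constitutive heat shock protein of the cytosol, differed by 0.13 ± 0.21. The endoplasmic reticulum chaperone PDIA4 stood at 0.39 to 61.3 CPM against 21.4 to 222 CPM.

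Apoptosis genes and p53 targets held from 0.072% to 0.12% of counts in the 5 and from 0.13% to 0.17% in the other 10, with no overlap. Of 33 in the fit, 12 lay at -2 or below and 1 at 2 or above, beside 25.8% and 3.01% of all genes. The 1 at 2 or above was CASP9, with a log2 difference of 2.66 ± 1.70 (SE). It stood at 34.5, 63.0, 0, 0 and 72.4 CPM in the 5 against 0.51 to 18.6 CPM. AEN, a nuclease and p53 target chosen after its values were seen, was at 0 in 4 of the 5 libraries and ranged from 1.29 to 12.8 CPM in the other 10. MCL1, which holds back apoptosis and was the highest of the list, differed by -0.05 ± 0.33 (SE). Immediate early genes kept 10 of 12 and held from 0.029% to 0.099% against 0.037% to 0.075%, with automatic 4 above all others. Interferon response genes kept 3 of 8, and MX1, an antiviral GTPase, was at 0 in all 5 libraries and under 10 counts in 3 of the other 10.

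Transcripts that mark other cells took a small share of counts in both classes. The cumulus and granulosa list held from 0.0059% to 0.032% of counts in the 5 and from 0.014% to 0.037% in the other 10, with 18 genes in the table of which 5 were at 0 in all 5 libraries. Of its 8 genes in the fit, 6 lay above 0, with a median log2 difference of 0.86, against 35.9% above 0 and a median of -0.55 over all genes. Its members FOXL2, NR5A1, PTX3 and INHA were under 10 counts in all 15 libraries. Other members were detected: 5 were found in all 10 other libraries, and 4 of these were kept in the low-detection class. The highest, SERPINE2, had a mean of 73.7 CPM in the low-detection class and 152 CPM in the other 10. Stromal and endothelial genes held from 0.0023% to 0.044% against 0.010% to 0.071%, oviduct and uterine genes from 0.00052% to 0.0069% against 0.0014% to 0.013%, and blood and immune genes from 0.0031% to 0.029% against 0.0040% to 0.028%. The leukocyte antigen PTPRC was under 10 counts in every library, but other members of these lists were detected. CD3D, the highest of the blood and immune list, had 10 or more counts in all 15 libraries. HBB, of the same list, reached 184 CPM in automatic 2 and 190 CPM in automatic 5, and was under 10 counts in 2 of the 5. PECAM1, the highest of the stromal and endothelial list, had 10 or more counts in all 15 libraries. Its mean was 48.6 CPM in the 5 and 64.0 CPM in the other 10. The part of other cells in the difference between classes was not tested.

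The class was then used as a term in the comparison of the study's groups, which did not serve to choose the libraries. Between automatic and manual denudation, edgeR called 0 of 11578 genes (0.0%) at an adjusted p under 0.05, with 195 at an unadjusted p under 0.05. DESeq2 called 3 and limma-voom 0. With the low-detection class left out, 1 of 12329 genes was called by edgeR: CYP51A1, an enzyme of cholesterol synthesis, with a log2 difference of -2.92 ± 0.38 (SE, automatic minus manual) and an adjusted p of 0.0363, against -2.73 ± 0.88 and an adjusted p of 1 with all 15 libraries and the class as a term.

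Between in vitro and in vivo blastocysts, edgeR with the class as a term called 4 of 11578 genes (0.0345%), and 769 had an unadjusted p under 0.05. PAGE4, a member of the PAGE family of antigens, was lower in vitro, at 70.0, 223, 122, 245 and 116 CPM in replicates 1 to 5 against 2.13 to 31.6 CPM in the 10 cultured libraries (log2 -3.29 ± 0.50, SE, in vitro minus in vivo). SLC34A2, a phosphate transporter, was also lower in vitro (log2 -2.50 ± 0.41), as was LRP2, the endocytic receptor megalin (-1.45 ± 0.24). CHAC1, which degrades glutathione and responds to amino acid stress, was higher in vitro, at 6.21 to 33.7 CPM against 0 to 0.10 CPM. Each had an edgeR adjusted p of 0.0336. PAGE4 lay higher in all 5 in vivo libraries than in any cultured one, and CHAC1 lower, in both classes.

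These calls depended on single libraries and on the tool. Leaving out 1 of the 15 libraries gave from 0 to 8 calls. The count was 0 in 11 cases, 2 without automatic 2 or automatic 4, 4 without automatic 3 and 8 without manual 3. Without the class term edgeR called 2 genes, PAGE4 and CHAC1, and without the 5 low-detection libraries 7 of 12329: CHAC1, PSPH, PHGDH, PSAT1, IFI30, PAG2 and SCIN. PAGE4, LRP2 and SLC34A2 were thus not called without the 5 libraries. DESeq2 called 435 and limma-voom 26 with the class as a term. The common biological coefficient of variation, the spread between libraries of a group after counting noise, was 1.32 with groups alone, 1.23 with the class as a term and 0.99 without the 5 libraries.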

How the data were processed

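The table the authors deposited holds estimated counts for each gene in 15 libraries, written as whole numbers with no common scaling. Per the submitters' processing notes, the tools were FastQC, fastp and kallisto. No coordinates, sequences or gene lengths are printed, because transcript set, genome build and use of the molecular identifiers were not given in the sources used here. Estimation of this kind divides reads between close paralogs, so ribosomal protein, keratin and PAG genes are less certain. Of 17259 genes, 17059 matched a symbol of ARS-UCD2.0, and 1 line without a name, which held no counts, was left out.

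The members and lists were chosen with earlier results of these data known. Detection was 10 or more counts. Log2 differences and group contrasts came from edgeR 4.0.16 in R 4.3.3 (TMM, filterByExpr, quasi-likelihood fit of group and class, Benjamini-Hochberg adjusted p under 0.05), with DESeq2 1.42.0 and limma-voom (limma 3.58.1) as alternatives. Rounding the estimates changed 0 values. CPM of single genes used TMM-scaled library sizes, while shares of lists, abundance bins and the levels of lost genes used raw totals. For the 36 lists (1710 symbols), medians were the same with genes at 0 in all 5 libraries set to a bound of 3 counts. Such genes lie at the low end of a list either way, so this bound could hardly move a median. On simulated counts for the same genes and libraries, true log2 class differences of 2 and -2 were tested for recovery in the median. The spread between simulated libraries was set smaller than in these data, where the common biological coefficient of variation was 1.23. The check therefore does not cover the spread seen here. Library totals ran from 17.96 to 41.97 M counts (M stands for 1e6). Intervals for single counts are not given, because reads are not independent molecules.

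Named genes were, first, the 8 largest differences in each direction among genes with a mean of 5 CPM or more and no overlap between classes. From each list the rule took the member of highest level and that of largest difference, though a list may be given by counts alone. Always named were the lineage genes KRT18, CDX2 and GATA3, then SOX2, NANOG and POU5F1, then SOX17, GATA6 and GATA4, and also genes called between groups. SDHA, RPLP0, TEAD4, LAMA1, SIRT6, AEN, KDM6B, CELF2, KMT5A, CARM1, RARA, NDUFA5, MOB3C, COG7, TBL2, CYP51A1 and the 5 genes absent from single libraries were chosen after their values were seen. Alternatives covered scaling, filters, tool, group and replicate terms, each group alone, detection limits, and each library left out.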

Additional observations from a re-analysis of the deposited data

Results flagged for a closer look

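Within the 5 low-detection libraries, 3 gene lists held 1 library whose share of counts lay far from the rest, by the gap to its neighbour over the whole range. Chaperones held 1.38% of counts in in vivo 2, against 2.12% to 2.41% in the remaining 4. Epithelial junction and keratin genes held 3.56% in in vivo 4, against 1.17% to 1.69%, and trophectoderm genes held 3.78% in the same library, against 1.06% to 1.40%. Both lists share keratin genes, so these are not independent.

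Among the 10 other libraries, manual 5, the library of lowest depth, held 9.99% of counts in genes of the mitochondrial genome, above the remaining 9 and within the range of the low-detection class. Manual 3 held 0.0133% in oviduct and uterine genes and automatic 5 held 0.0276% in blood and immune genes, each the highest of the 10. Of 80 sets of values examined in this way 6 stood out, and chance gives about 1 in 20.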

How the results depend on the processing

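The median log2 difference of all genes was -0.55 and stayed below 0 in every setting, from -1.29 by limma-voom and -1.59 within the automatic group alone to -0.12 without the group covariate. Genes at 2 or above numbered 348, and were 162 with library size alone, 652 without the filter, 175 by limma-voom, 570 without the group covariate, 1131 within manual alone, 574 within in vivo alone, and from 329 to 552 with 1 library left out (552 without manual 2). Genes at -2 or below numbered 2984, and were 4876 without the filter, 4520 by limma-voom, 1928 without the group covariate and 5220 within automatic alone. Where a group alone is compared, manual rests on 1 low-detection library. Genes with all 5 libraries above all others numbered 109, 31 with library size alone, and from 109 to 269 with 1 library left out (167 without automatic 4, 269 without in vivo 4). Those with all 5 below numbered from 253 to 530 (440 without automatic 2, 427 without manual 2, 530 without in vivo 4). The 62 genes lost in every low-detection library became 176 when 9 of 10 other libraries sufficed, and from 89 to 156 with 1 low-detection library left out, where fewer libraries have to lose a gene (109 without automatic 2, 118 without manual 2, 100 without in vivo 2, 156 without in vivo 4). Of the lists given by a median, 11 were followed over 26 settings. Lists outside the 11 were not, among them the epiblast, cumulus and granulosa, transcription machinery, secretory pathway, cholesterol synthesis and apoptosis lists. The 11 kept their direction relative to all genes in all 26 settings, but some came close to 0 or moved far. The range was 0.019 to 1.32 for the spliceosome, 0.0063 to 0.73 for nuclear pore and import, 0.084 to 1.32 for translation factors, -0.67 to -0.029 for ZNF genes and -1.80 to -0.089 for interferon response. The cause of the other moves was not tested.

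Between automatic and manual, DESeq2 called 3 genes and edgeR 1 without the 5 low-detection libraries. Between in vitro and in vivo, edgeR called 0 genes with library size alone, 2 without the class term, 7 without the 5 libraries and from 0 to 8 with 1 library left out. DESeq2 called 435 and limma-voom 26.

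All 15 pairs of libraries with the same replicate number had a positive r of their deviations from the group means (0.0014 to 0.38). Of these pairs, 8 were above 0.1. Of the 15 libraries, 8 had their highest r with their own number. How often this would arise without a shared source was not tested. As the labels give no shared source, the number was not treated as a pairing. With the replicate number as a block, 1316 genes lay at 2 or above, and 4 genes were called between in vitro and in vivo (TMSB10, LRP2, PAGE4 and SLC34A2, all lower in vitro; CHAC1 was not called); with the block in place of the class, a setting added after seeing the data, 8 were. In the first of these the class term rests on number 4 alone. All libraries of number 2 and none of numbers 1, 3 and 5 are in the class. That setting also moved the log2 differences of 57 of the 99 named genes in the fit. This was more than in any other setting, the next being 36 within manual alone.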
